A study of Mus musculus with 4 samples.

Results

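The Hox genes were examined in open chromatin of mouse rib chondrocytes: 38 of 18206 protein-coding genes with a start in both genome annotations used. They were taken by symbol, as 10 genes of HoxA, 10 of HoxB, 9 of HoxC and 9 of HoxD. Each cluster was read from its first to its last Hox gene with 100 kb added on either side. In NCBIM37 (mm9) the clusters spanned chr6:52112350-52210874 (HoxA), chr11:96055630-96229570 (HoxB), chr15:102751534-102867274 (HoxC) and chr2:74506367-74603200 (HoxD).

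ATAC-Seq, which marks open chromatin by the insertions of the Tn5 transposase, had been applied to primary chondrocytes of newborn mouse rib cartilage. Of the 4 libraries, Cho replicate 1 and Cho replicate 2 carry no genotype label, WT came from 1 library and the E160/E308 deletion from 1 library. In the deletion library both copies of E160 and of E308, enhancers upstream of the cartilage gene Sox9, had been deleted from the germline by CRISPR/Cas9 on a C57BL/6J background. WT and deletion mice were littermates, and rib cartilage of newborn mice of mixed sex was the source of the cells. With 1 library per genotype, a difference between WT and the deletion compares those libraries and has no replicate check, so no test between genotypes was made.

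Hox genes encode homeodomain transcription factors that give segments along the body axis their identity. Within a cluster the genes lie in the order of their paralog numbers, genes of low number acting toward the head and genes of high number toward the tail. In the trunk skeleton, Hox6 proteins are known for promoting ribs, Hox10 proteins for blocking them in the lumbar region and Hox9 proteins for patterning the ribs that join the sternum. In differentiated cells, Hox genes of other body levels are usually held under Polycomb repression.

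Peaks are given by the deposited fold enrichment, the tag pileup at the summit over the local background with 1 added to both. For Cho replicate 1 that background was 1 value for the whole library, as given below. Where promoters are ranked within a library, the summit pileup divided by the background of the whole library is given as well. A promoter was counted as open when a peak summit lay within 1 kb of the gene start. A promoter open in several libraries can thus rest on different peaks. In bulk chromatin, fewer cells with an open site and less opening in each cell cannot be told apart.

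Cho replicate 1 stood apart from the other libraries. Promoters of chondrocyte genes had a peak at 4 of 9 markers in Cho replicate 1 and at 8 of 9 in Cho replicate 2, WT and the deletion, with summed pileups over background of 70.2, 678, 485 and 438. In Cho replicate 1, Acan, Matn1, Col9a1 and Col11a2 had no promoter peak, and Comp had none in any library. The other marker lists, of 3 or 4 genes and not 9, had summed pileups of at most 81.4 in any library. Sums over lists of unlike length do not compare the lists. In Cho replicate 1 the endothelial sum was 40.9, and the median of open promoters was 13.2 times background for endothelial and 15.7 for chondrocyte genes. Of the other lists, muscle had a peak at 0 to 2 of 4 genes, osteoblast at 1 to 4 of 4, endothelial at 2 to 3 of 4, epithelial at 0 to 2 of 4, neural at 1 to 3 of 4 and blood at 0 of 3. The background of Cho replicate 1 was the same at 100% of its 76242 peaks, within 1%, against 26.7% to 40.4% of peaks in the other lists. The fold enrichments of Cho replicate 1 thus stand over a constant background and those of the other lists mostly over a local one. These are unlike measures. The part of these differences in the Hox results was not tested, and the results that rest on that library are also given without it.

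The summit base and 50 bases on either side of it are printed for 3 WT peaks, 5′ to 3′, from NCBIM37, on the strand of the gene or, for distal sites, on the plus strand. The first is the summit with the most CG pairs among Hox promoters whose window touches no exon, and the others are distal sites described further on. Capitals mark a match to TGACTCA, the AP-1 site, searched on both strands. Among the distal sites of highest WT fold enrichment per cluster, the printed ones are those whose window holds this match. The windows of the other such sites hold none, so the printed distal sites do not stand for the set.
Hoxa4, 188 bp upstream of the start, chr6:52141890-52141990 (-): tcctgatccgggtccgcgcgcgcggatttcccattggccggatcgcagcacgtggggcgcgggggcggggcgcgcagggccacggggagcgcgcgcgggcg
Site 11.0 kb upstream of Hoxb9, chr11:96121721-96121821 (+): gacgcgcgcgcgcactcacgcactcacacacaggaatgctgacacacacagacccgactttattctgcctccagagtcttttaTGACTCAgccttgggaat
Site 81.2 kb upstream of Hoxc13, chr15:102670301-102670401 (+): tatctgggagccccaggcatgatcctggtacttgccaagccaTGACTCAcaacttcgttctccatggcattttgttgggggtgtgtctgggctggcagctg

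The Hoxa4 window held 20 CG pairs at a GC content of 80.2%, and the peak had a fold enrichment of 6.47 in WT.

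The first question was which Hox promoters were open. Most had a peak in 3 of the libraries and few in Cho replicate 1. Peaks lay at 29 of 38 Hox promoters in Cho replicate 2 (76.3%, 95% Clopper-Pearson interval 59.8% to 88.6%), where 64.9% of all protein-coding promoters had one. WT had 23 (60.5%, 43.4% to 76.0%) against 62.1% of all promoters. The deletion library had 30 (78.9%, 62.7% to 90.5%) against 67.9%. In these 3 libraries the share among Hox genes was thus near the share among all genes, and each interval held it. With lists of equal length the Hox share was below that of all genes in each of them, as given in the last section. Cho replicate 1 had 6 (15.8%, 6.02% to 31.3%) against 58.6% of all promoters, and its interval lay below that share. These intervals cover counting error over genes only.

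**Figure D1:**
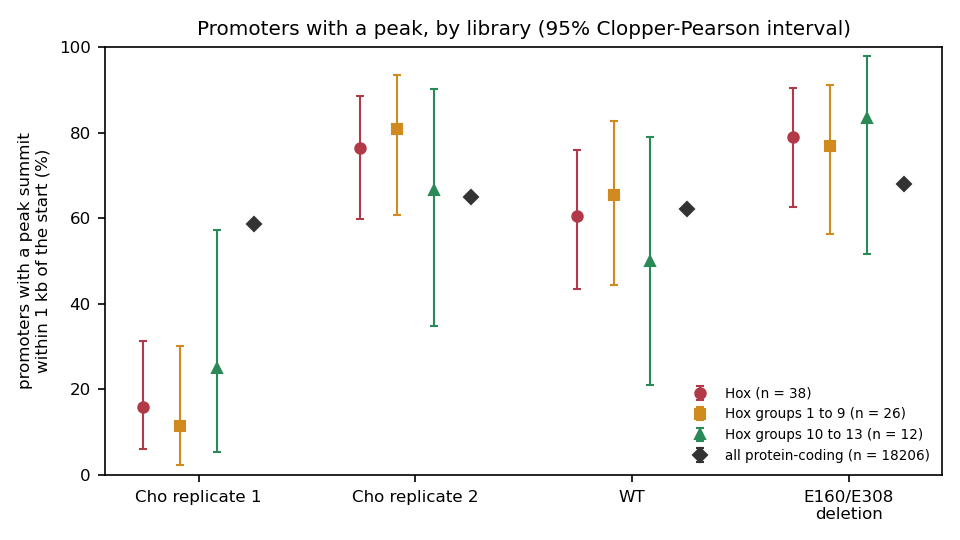
Share of promoters with a peak summit within 1 kb of the gene start (y axis, %) in each library (x axis), for all Hox genes, for paralog groups 1 to 9 and 10 to 13, and for all protein-coding genes. Bars are 95% Clopper-Pearson intervals, and in Cho replicate 1 the 6 of 38 Hox promoters lie below the 58.6% of all promoters, while in the other libraries the Hox intervals hold the share of all promoters.

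In all 4 libraries 4 Hox promoters had a peak, Hoxa7, Hoxa10, Hoxd8 and Hoxd13, where 52.7% of all promoters did. Without Cho replicate 1 the count was 22. Another 19 Hox promoters had a peak in 3 libraries, 6 in 2 and 3 in 1. No library had a peak at 6 promoters, those of Hoxa9, Hoxb3, Hoxc4, Hoxc12, Hoxd4 and Hoxd12. Of all promoters, 28.0% had none in any library. Of the 6, Hoxa9, Hoxb3 and Hoxc4 had a peak at another annotated start in some libraries. At Hoxc12 the nearest summits lay outside the window, 1714 bp, 1640 bp and 1672 bp upstream in WT, the deletion and Cho replicate 2. Their fold enrichments were 4.55, 10.2 and 12.0.

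Hox promoters that were open had less signal than other open promoters. In WT the median summit pileup was 38.8 times background over the 23 Hox promoters with a peak and 80.4 times over the 11313 of all genes. The medians were 17.4 and 66.9 for Cho replicate 2, 30.3 and 65.5 for the deletion library, and 4.75 and 20.5 for Cho replicate 1. The medians of deposited fold enrichment were also lower, 6.29 against 12.7 in WT, 7.88 against 17.6 in Cho replicate 2, 6.87 against 12.4 in the deletion library and 3.17 against 12.2 in Cho replicate 1. The lowest summit that any list held had a pileup of 4 tags for WT, 4 for the deletion, 6 for Cho replicate 1 and 8 for Cho replicate 2, so weaker signal at a promoter without a peak could not be detected.

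The median pileup of open promoters in WT was 55.5 times background for HoxA, 33.3 for HoxB, 51.3 for HoxC and 19.4 for HoxD. By fold enrichment the order differed, with medians of 6.47, 7.40, 6.53 and 5.17. Hoxa5, which patterns the neck and upper thorax, reached a fold enrichment of 12.4 in WT, 8.03 in the deletion library and 12.1 in Cho replicate 2, without a peak in Cho replicate 1. Its summit pileup in WT, 130 times background, was the highest of any Hox promoter there. Hoxa10, of the group that blocks ribs, was at 14.1 in WT, 15.9 in the deletion library, 25.1 in Cho replicate 2 and 2.96 in Cho replicate 1. It was the Hox promoter of highest fold enrichment in WT and in the deletion library, and its Cho replicate 1 peak, of 6 tags, was at the lowest pileup of that list. The summits lay 280 bp to 285 bp downstream of the start in WT, the deletion and Cho replicate 2, and 399 bp downstream in Cho replicate 1.

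Of the HoxA genes below Hoxa10, Hoxa2 to Hoxa5 had a peak in 3 libraries, Hoxa6 in 2, Hoxa7 in 4 and Hoxa9 in 0. Hoxa7 was at 5.59 in WT, 5.47 in the deletion library, 7.14 in Cho replicate 2, where the summit lay 990 bp downstream of the GRCm38 start, and 2.96 in Cho replicate 1. These were different peaks: by distance from the Hoxa13 start, the Cho replicate 2 summit lay 4072 bp from that of Cho replicate 1, and at the NCBIM37 start Cho replicate 2 had another peak of 9.79. Hoxa3, known for its role in thymus and parathyroid, was at 6.52 in WT, 5.96 in the deletion and 8.72 in Cho replicate 2, and Hoxa4 at 6.47, 5.59 and 5.02 in this order. Hoxa6 was at 5.40 in WT and 4.97 in the deletion library, with no peak in Cho replicate 2 within 1 kb of the GRCm38 start. By distance from the Hoxa13 start, however, Cho replicate 2 had a peak of 6.09 at 27 bp from the WT summit, so this call rests on the gene record. Hoxa2, which patterns the branchial arches, had the lowest fold enrichments of the open HoxA promoters outside Cho replicate 1, 3.26 to 3.59. Its WT and deletion summits lay 895 bp apart.

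Toward the 5′ end of HoxA, past Hoxa10, calls were lost in WT and Cho replicate 1 but not in the deletion library or Cho replicate 2. Hoxa10 was the last gene with a peak in all 4 libraries, and the next, Hoxa11, had a peak only in the deletion library, at 7.37, and in Cho replicate 2, at 6.09. Hoxa13, a gene of the digits and the genital tubercle, was at 5.40 in the deletion library and 7.47 in Cho replicate 2. The nearest WT summit lay 5645 bp downstream of the Hoxa11 start, at the Hoxa10 promoter, and 3780 bp downstream of the Hoxa13 start. Hoxa9 had no peak within 1 kb of the start of its gene record, but WT had one of 4.07 and the deletion library one of 4.71 at another annotated start of the gene.

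HoxB had peaks at 9 of 10 promoters in Cho replicate 2, 6 in WT, 7 in the deletion library and 0 in Cho replicate 1. Hoxb13, the most tailward gene of the cluster and separated from the others, was at 8.82 in WT, 8.44 in the deletion library and 30.3 in Cho replicate 2. The last value was the highest fold enrichment of any Hox promoter in Cho replicate 2. Hoxb9 was at 7.20, 8.995 and 7.88 in the same order, Hoxb7 at 8.82, 8.11 and 8.03, and Hoxb5 at 7.60, 6.597 and 8.61. At Hoxb7 the Cho replicate 2 value was of another peak. By distance from the Hoxb13 start, its peak 24 bp from the WT summit was at 7.80.

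Some HoxB calls depended on the annotated start. Hoxb8 had a peak within 1 kb of its start in Cho replicate 2 alone, at 23.7, and so did Hoxb4, a gene of cervical identity, at 10.3. The gene records of Hoxb8, Hoxb4 and Hoxb3 differ in length by over 1 kb between the annotations of NCBIM37 and GRCm38. By distance from the Hoxb13 start, the same sites were open in WT and the deletion. At the Hoxb8 site WT had a peak of 11.3 and the deletion one of 12.6, both 29 bp from the Cho replicate 2 summit. At the Hoxb4 site the values were 8.58 at 13 bp and 12.6 at 19 bp. Hoxb3 had no peak at the start of its gene record but one at another annotated start, at 3.19 in WT and 8.23 in the deletion. Hoxb2 and Hoxb6 were open in the 3 libraries other than Cho replicate 1, at 5.15 to 7.47. At Hoxb6 the Cho replicate 2 summit lay 1085 bp from that of WT by distance from the Hoxb13 start. Hoxb1, the most headward gene listed, was at 3.69 in the deletion library and 3.72 in Cho replicate 2.

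HoxC had peaks at 7 of 9 promoters in Cho replicate 2, 6 in WT, 7 in the deletion library and 0 in Cho replicate 1. Hoxc10 had the highest fold enrichment of the cluster in WT and Cho replicate 2, at 13.4 in WT, 12.6 in the deletion library and 20.4 in Cho replicate 2. Hoxc13, a gene of hair and nails, was at 8.54, 12.8 and 16.9 in this order, and its summit in the deletion library lay 1000 bp from the start, at the limit of the window.

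Among the HoxC genes of middle number, Hoxc8 was at 6.29 in WT, 8.58 in the deletion library and 11.1 in Cho replicate 2, and Hoxc5 at 6.76, 7.44 and 11.1. Toward the 5′ end, Hoxc11 was at 4.33, 8.93 and 10.1. Hoxc6, of the group that promotes ribs, had 3.67 to 4.28 at its promoter. The 3.67 of Cho replicate 2 was of another peak. By distance from the Hoxc13 start, its peak 25 bp from the WT summit was at 3.24. The strongest summit inside HoxC in WT lay 1197 bp downstream of the Hoxc6 start, in an intron, at a pileup of 103 times background, with 87.8 for the deletion and 81.8 for Cho replicate 2. Hoxc9 was open in the deletion library at 6.25 and in Cho replicate 2 at 6.64. By distance from the Hoxc13 start these summits lay 760 bp apart, and at the NCBIM37 start Cho replicate 2 had another peak of 11.5. Hoxc4 had no peak at the start of its gene record but one at another annotated start, at 5.82 in WT, 8.27 in the deletion library and 10.3 in Cho replicate 2.

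HoxD had the lowest pileups at its promoters in WT. There its 4 promoters with a peak reached summit pileups of 13.9 to 22.2 times background, below all 7 open HoxA promoters, which ranged from 38.8 to 130. By fold enrichment the ranges overlapped, 4.02 to 5.88 in HoxD and 3.26 to 14.1 in HoxA. Hoxd8 was at 5.76 in WT, 6.43 in the deletion library, 6.76 in Cho replicate 2 and 4.22 in Cho replicate 1. Hoxd13, a gene of digit formation, was at 4.02, 7.15, 4.73 and 3.80 in the same order, and it is the last Hox gene of the cluster toward the 5′ end. Its summits lay 973 bp upstream of the start in Cho replicate 1 and 924 bp upstream in the deletion library, and 478 bp and 368 bp downstream in Cho replicate 2 and WT, so the call in all 4 libraries joins different peaks.

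The remaining HoxD genes were open in fewer libraries. Hoxd9 was at 7.34 in the deletion library, 12.2 in Cho replicate 2 and 2.96 in Cho replicate 1. Hoxd10, another gene of the lumbar level, was at 7.78 in the deletion library and 3.38 in Cho replicate 1, and Hoxd11, of the sacral level, at 4.51 in the deletion library alone. Hoxd1 and Hoxd3 were open in the 3 libraries other than Cho replicate 1, at 4.57 to 7.78. The WT and deletion summits of Hoxd1 lay 1081 bp apart. For Hoxd10 the gene record of GRCm38 is over 1 kb longer than that of NCBIM37, and Cho replicate 2 had a peak of 12.9 at another annotated start. That peak lay 748 bp downstream of the NCBIM37 start by distance from Hoxd13. Hoxd4 and Hoxd12 had no promoter peak in any library, and the nearest WT summits lay 6013 bp and 6251 bp upstream of their starts. For Hoxd12 the nearest summits lay closer in the deletion library, 1751 bp upstream at 7.75, and in Cho replicate 2, 1826 bp upstream at 7.78.

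**Figure D2:**
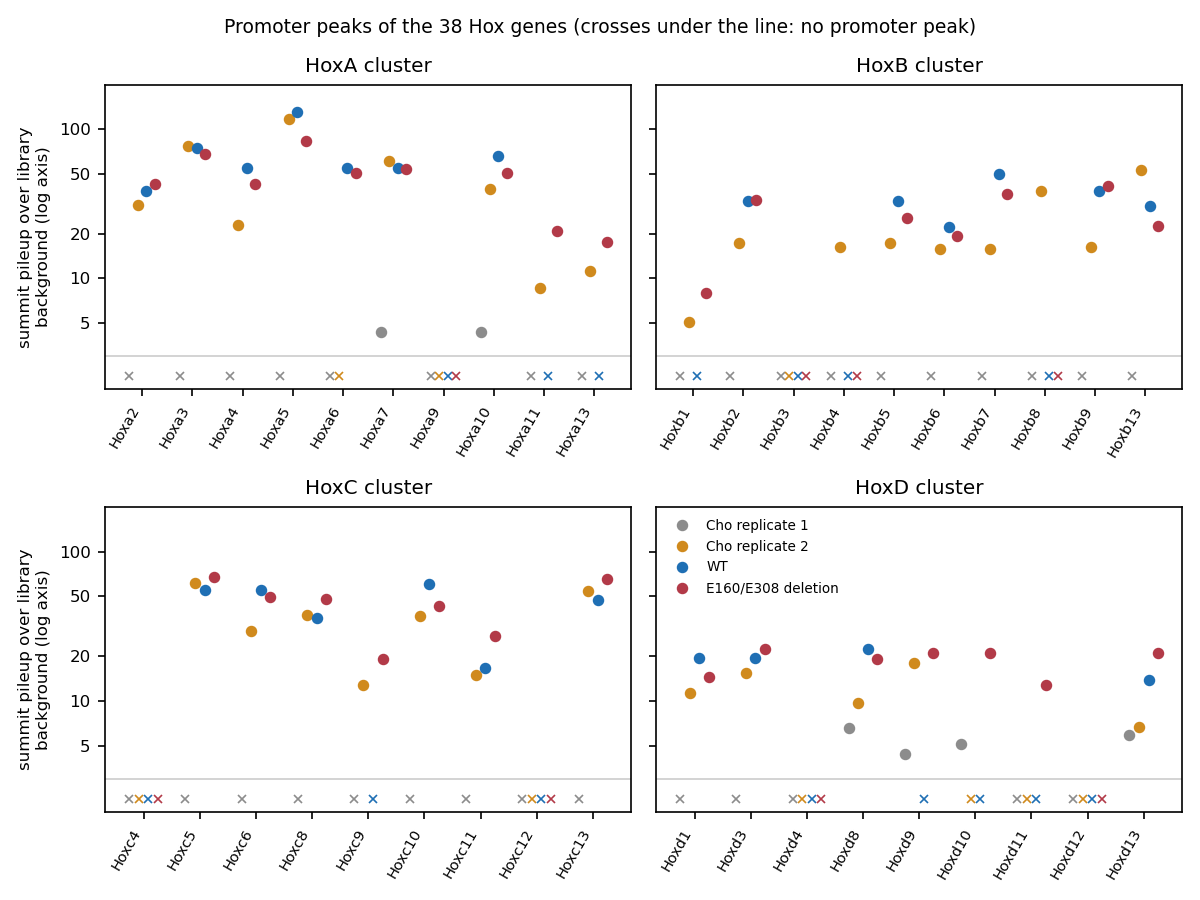
Summit pileup over library background (y axis, log scale) at the promoter of each of the 38 Hox genes (x axis, by paralog number within each cluster). Each point is 1 library, and crosses under the line mark promoters without a peak. HoxA promoters reach 130 in WT, HoxD promoters stay at or below 22.4 in every library, and Cho replicate 1 has points at Hoxa7, Hoxa10, Hoxd8, Hoxd9, Hoxd10 and Hoxd13 only.

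The position of a gene in its cluster was then set against its call, since ribs form at thoracic level and Hox groups 10 to 13 are known to act mainly below it. Of the 12 promoters of groups 10 to 13, 6 had a peak in WT (50%, 21.1% to 78.9%), 8 in Cho replicate 2 (66.7%, 34.9% to 90.1%), 10 in the deletion library (83.3%, 51.6% to 97.9%) and 3 in Cho replicate 1 (25%, 5.49% to 57.2%). Of the 26 promoters of groups 1 to 9 the counts were 17 (65.4%, 44.3% to 82.8%), 21 (80.8%, 60.6% to 93.4%), 20 (76.9%, 56.4% to 91.0%) and 3 (11.5%, 2.45% to 30.2%) in the same order. The intervals of both sets overlapped in each library. The median fold enrichment of open promoters was 8.68 in groups 10 to 13 and 5.88 in groups 1 to 9 in WT, 13.5 and 7.78 in Cho replicate 2, and 8.11 and 6.20 in the deletion library. By pileup over background the medians were equal in WT, at 38.8, were 25.8 and 17.4 in Cho replicate 2, and turned in the deletion library, at 21.6 and 39.1. Over all 38 genes, with promoters without a peak at 0, the Spearman correlation of paralog number with summit pileup over background was -0.18 in WT, -0.044 in the deletion library and -0.090 in Cho replicate 2. These are descriptions over genes that share libraries and clusters.

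Cho replicate 1 lacked peaks across the clusters and not at their promoters alone. It had 10 peaks inside the 4 clusters, 2 in HoxA, 1 in HoxB, 2 in HoxC and 5 in HoxD. Cho replicate 2 had 118, WT 73 and the deletion library 136. Per 100 kb of cluster this came to 15.1 peaks in WT, 28.0 in the deletion library, 24.3 in Cho replicate 2 and 2.06 in Cho replicate 1. In the flanks the densities were 5.75, 11.8, 9.63 and 2.5. Over the whole genome the lists had 3.56 peaks per 100 kb for WT, 6.63 for the deletion and 2.98 for Cho replicate 1. In WT and the deletion library the clusters were thus denser in peaks than the genome. In Cho replicate 1 the 4 clusters together were not, although HoxD alone had 5.16 peaks per 100 kb, from 5 peaks.

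**Figure D3:**
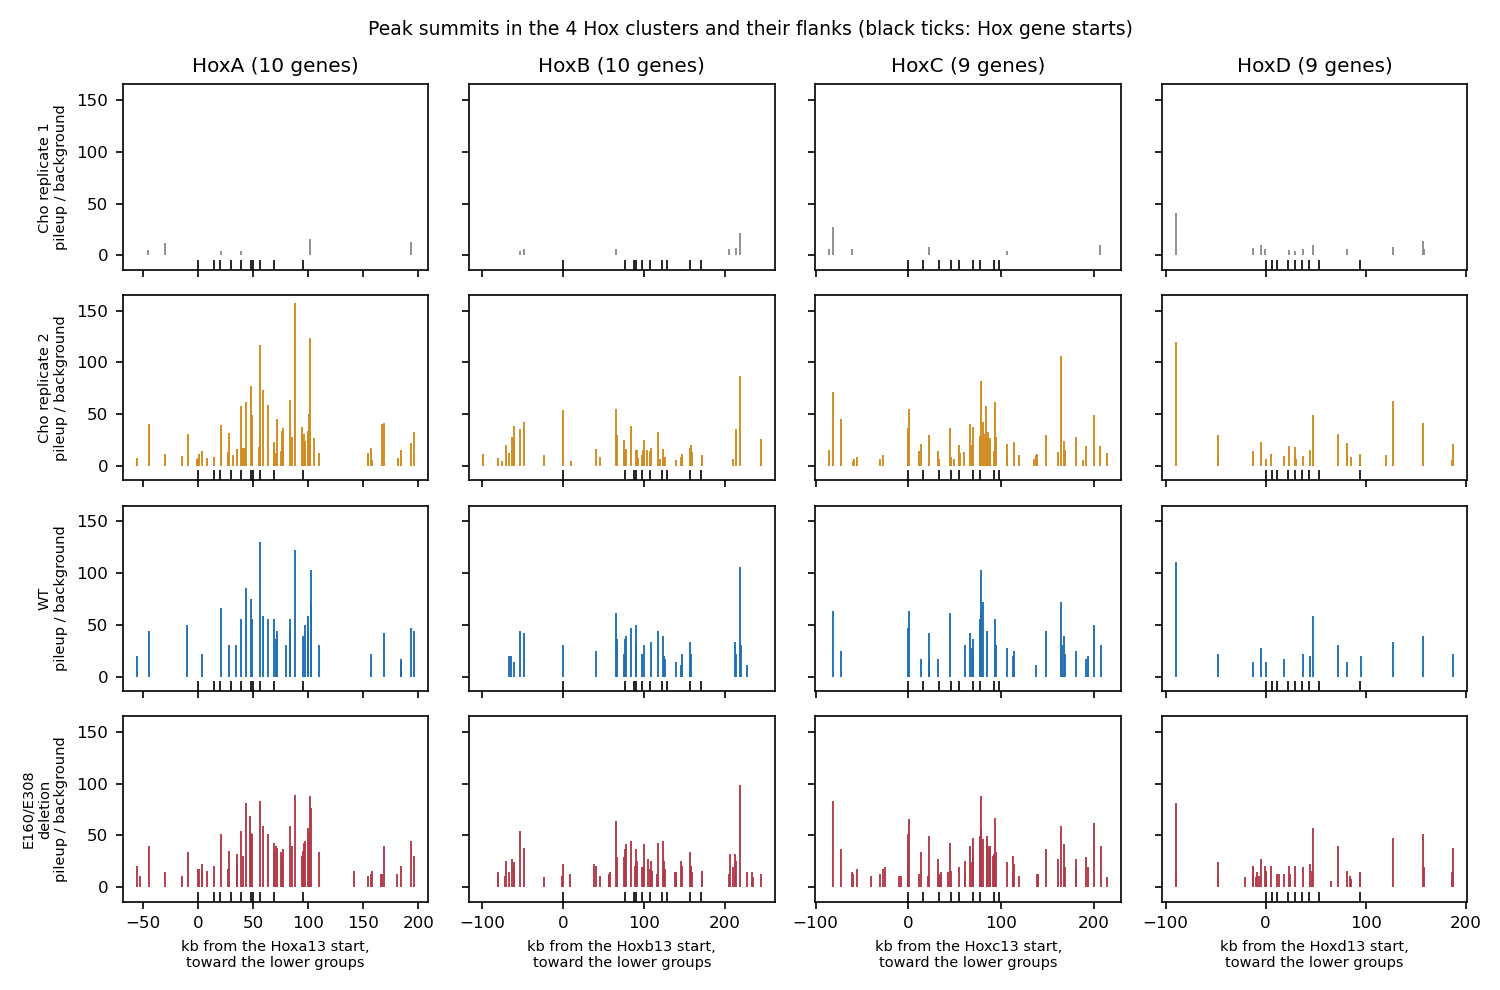
Peak summits in the 4 Hox clusters and 100 kb on either side, by library (rows) and cluster (columns). The x axis is the distance in kb from the start of the gene of highest number toward genes of lower number, the y axis is the summit pileup over library background, and black ticks are Hox gene starts in NCBIM37. Inside the clusters Cho replicate 1 has 10 summits, none above 10.2, while Cho replicate 2, WT and the deletion library have 118, 73 and 136.

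The difference was set beside promoters of all genes that met the same condition in the other libraries. Signal was not matched within a condition. The median WT pileup of open promoters was 38.8 times background for Hox and 80.4 for all genes, and the part of this in the counts was not tested. Of the promoters with a peak in Cho replicate 2, WT and the deletion library, 91.8% of all genes also had one in Cho replicate 1, against 4 of 22 Hox genes. Among promoters with a WT pileup of at least 50 times background, 97.5% of 8313 had a peak in Cho replicate 1, against 2 of 9 Hox promoters. Of all WT peaks, 57.7% were overlapped by a Cho replicate 1 peak. In the Hox clusters this was 9 of 73 inside (12.3%, 5.79% to 22.1%) and 16 of 46 in the flanks (34.8%, 21.4% to 50.2%). CpG content was also compared, as the observed over expected number of CG pairs from 250 bp before to 50 bp after the start in NCBIM37, with medians of 0.664 for Hox and 0.566 for all genes. In the middle range of the Hox promoters, 0.531 to 0.856, 86.5% of 5692 promoters had a peak in Cho replicate 1 and 3 of 18 Hox promoters did. In the same range WT had 89.9% and 12 of 18, Cho replicate 2 88.3% and 14 of 18, and the deletion library 94.6% and 15 of 18.

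**Figure D4:**
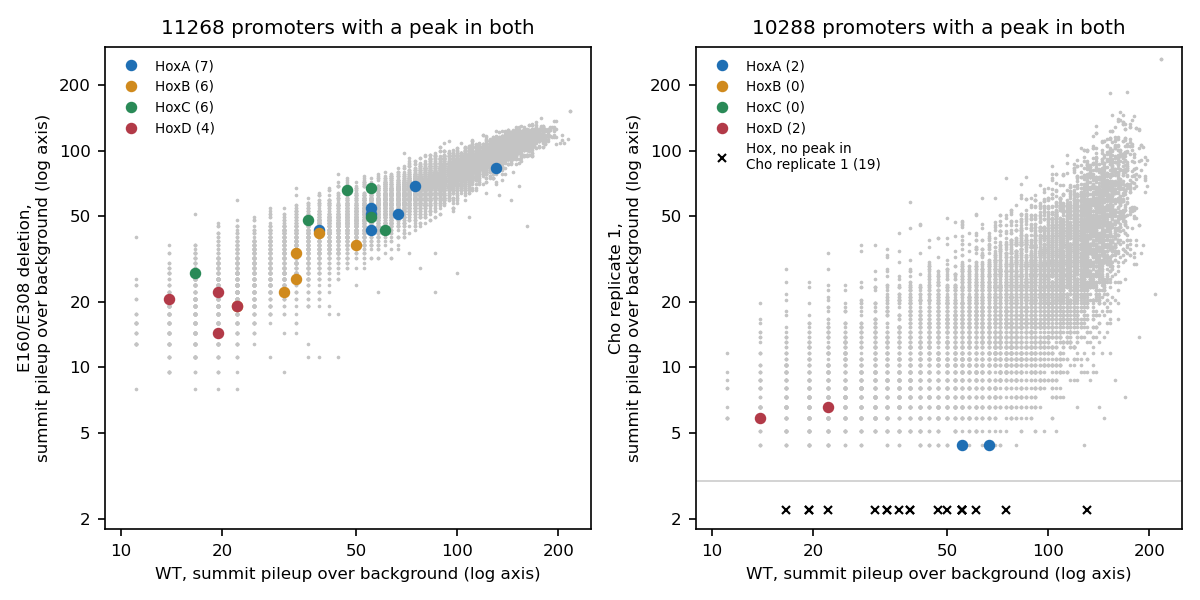
Summit pileup over library background at promoters with a peak in both libraries (gray, all genes; colored, Hox genes by cluster), with WT on the x axis and the deletion library (left) or Cho replicate 1 (right) on the y axis, all on log scales. The 23 Hox promoters lie within the cloud on the left, and on the right 19 Hox promoters that were open in WT have no peak in Cho replicate 1 (crosses under the line).

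Where Cho replicate 1 did have Hox peaks, they were weak. Its 6 promoter peaks had fold enrichments of 2.96 to 4.22 and pileups of 6 to 9 tags. Over the 5 Hox promoters open in both Cho replicates, fold enrichment had a median of 2.96 for Cho replicate 1 and of 7.14 for Cho replicate 2 (mean 5.05 ± 2.96, SD, n = 2). These medians were those of Hoxa7, where the replicates had different peaks, as they did at Hoxd13 (1451 bp apart). Placed by distance, the summits lay 7 bp apart at Hoxd8, 114 bp at Hoxa10 and 151 bp at Hoxd9. The fold enrichment was 5.49 ± 1.797 at Hoxd8, 14.0 ± 15.6 at Hoxa10 and 7.57 ± 6.52 at Hoxd9 (SD, n = 2). The SDs also hold the unlike backgrounds of both lists, so they do not measure spread between replicates alone.

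The deletion library was compared with WT to see whether the Hox promoters changed in mice lacking E160 and E308. At the 23 promoters with a peak in both, the median log2 ratio of fold enrichment was 0.054, beside 0.015 over 11268 promoters of all genes. The fold enrichment was higher in the deletion library at 13 Hox promoters and lower at 10, and it was higher at 52.3% of all promoters. A log2 ratio above 1 was reached by 1 Hox promoter and by 1.08% of all, and a ratio below -1 by 0 Hox promoters and by 0.0799% of all. By summit pileup over background, the median was -0.13 for Hox and -0.26 for all promoters, so the direction changed with the measure.

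The ratios of single promoters had wide counting error. Hoxc11, of the sacral level, had a log2 ratio of 1.04, with fold enrichments of 4.33 (WT) and 8.93 (deletion). Its summits held 6 and 17 tags, and the ratio of pileups over background was 1.63 with a counting interval of 0.614 to 5.05. Hoxd13 and Hoxc13 followed with log2 ratios of 0.83 and 0.59, but the peaks compared lay 1292 bp and 1168 bp apart. WT had another peak just outside the window at Hoxc13, of 11.4 beside 12.8 in the deletion, and at the WT site of Hoxd13 the deletion had a weaker peak of 4.76 beside 4.02. At the other end, the log2 ratio of fold enrichment was -0.63 for Hoxa5, -0.21 for Hoxa4 and -0.20 for Hoxb5. Hoxa5 was the strongest Hox promoter of WT, with 47 tags against 52 in the deletion library and summits 48 bp apart. For it the ratio of pileups over background was 0.637 (0.421 to 0.966), with the median of all promoters at -0.26 and Hoxa5 at -0.65 on the log2 scale. Counting intervals of this kind held 1 at the other 22 Hox promoters, and they leave out the spread between animals. Hoxa5 was singled out as the lowest of 23 ratios, so its interval does not set it apart. The intervals are also set against 1 and not against the shift of all promoters.

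In the deletion library and not in WT, 7 of 38 Hox promoters had a peak, where 5.99% of all promoters, a smaller share, did. They were Hoxa11, Hoxa13, Hoxb1, Hoxc9, Hoxd9, Hoxd10 and Hoxd11. A peak in WT and not in the deletion library was found at 0 Hox promoters and at 0.247% of all. These 7 had fold enrichments of 3.69 to 7.78, around the median of 6.87 over open Hox promoters of the deletion library. Their summit pileups, 7.98 to 20.8 times background, all lay below the median of 30.3. The deletion list was longer, with 169591 peaks against 90971. With lists of equal length the counts were 20 of 38 in the deletion library and 19 of 38 in WT, against 60.1% and 60.4% of all promoters.

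Over the clusters with flanks, the deletion library had 230 peaks and WT 119, a ratio of 1.93 beside 1.86 for the whole lists. Of the 119 WT peaks, 114 were overlapped by a deletion peak (95.8%, 90.5% to 98.6%), as were 95.9% of all WT peaks. Of the 230 deletion peaks, 110 were overlapped by a WT peak (47.8%, 41.2% to 54.5%), as were 49.4% of the whole deletion list. Over the 23 Hox promoters, the Spearman correlation of pileup over background was 0.87 between WT and the deletion, beside 0.95 over all promoters, as a description over genes that share library and base composition.

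Distal sites were open beside and within each cluster. They are the 2 peaks of highest WT fold enrichment per cluster that lay over 1 kb from every annotated transcript start. Sites of Cho replicate 2 were matched by their distance from the start of the gene of highest number in the cluster, within 500 bp. The site 11.0 kb upstream of Hoxb9, printed above, was in an intron of Gm53 at chr11:96121656-96122045. It was at 12.6 in WT, 14.5 in the deletion library, 21.0 in Cho replicate 2 and 3.80 in Cho replicate 1, and it was the only peak of Cho replicate 1 inside HoxB. The site 81.2 kb upstream of Hoxc13, at chr15:102670173-102670422, was at 14.3, 21.1, 26.5 and 16.5 in the same order. It lay outside the cluster, and the summit pileup of 27.8 times background in Cho replicate 1 was above its highest inside any cluster, 10.2.

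The other distal sites differed in whether Cho replicate 1 held them. Past Hoxb1, a site 48.04 kb downstream of its start was at 17.9 in WT, 18.0 in the deletion library, 22.1 in Cho replicate 2 and 12.7 in Cho replicate 1. Upstream of Hoxa13, a site at 9.79 kb was at 14.0 in WT, 12.5 in the deletion library and 21.0 in Cho replicate 2, with no peak in Cho replicate 1. A second one at 45.2 kb, which lies 7.44 kb from the start of Evx1, was at 11.5, 13.7, 23.1 and 3.38 in WT, the deletion, Cho replicate 2 and Cho replicate 1. Within HoxD, an intronic site of Hoxd3, 18.7 kb downstream of the Hoxd4 start, was at 7.46 in WT, 11.2 in the deletion library and 16.6 in Cho replicate 2. Past Hoxd1, a site at 32.6 kb was at 9.20, 16.4, 28.9 and 5.07 in WT, the deletion, Cho replicate 2 and Cho replicate 1. A site 103 kb past Hoxc4 was at 12.3 in WT and 21.2 in the deletion library, with 29.9 in Cho replicate 2 and no counterpart in Cho replicate 1. In HoxD the strongest summit inside the cluster, chosen after its values were seen, lay 31 bp from the start of the lincRNA 1700109F18Rik, 4036 bp downstream of the Hoxd3 start, at 12.1, 15.5, 23.4 and 6.33 in that order.

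Motifs were counted within 50 bases of each WT summit. The AP-1 site was found at 2 of 73 summits inside the clusters (2.74%, 0.334% to 9.55%), at 7 of 46 in the flanks (15.2%, 6.34% to 28.9%) and at 11.2% of all WT summits. This motif was chosen after the printed sequences were read. The Pbx-Hox site TGATTNAT was at 1 of 73 and 2 of 46 summits and at 2.12% of all, the Meis site TGACAG at 2 and 1 and at 6.399% of all, and the CTCF core AGGGGGCGC at 0 of both (up to 4.93% of 73) and at 0.805% of all. From 250 bp before to 50 bp after the starts of the 38 Hox genes, the Pbx-Hox site was present at Hoxb3 and Hoxb9 (5.26%, against 2.74% of all genes) and the Meis site at Hoxa4, Hoxa6, Hoxb7 and Hoxb9 (10.5%, against 18.2%). All motifs were searched on both strands, and a match is a description of the letters only.

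Genes for proteins that bind DNA together with Hox proteins were examined next. All 8 cofactor genes examined, Pbx2 to Pbx4, Meis1 to Meis3, Pknox1 and Pknox2, had a promoter peak in the WT and deletion libraries, 7 did in Cho replicate 2 and 6 in Cho replicate 1, where 62.1%, 67.9%, 64.9% and 58.6% of all promoters had one. With 8 genes, these counts do not set the list apart. Their median fold enrichment was 10.6 in WT, with a range of 8.34 to 13.7, beside 6.29 for open Hox promoters and 12.7 for all open promoters. For Cho replicate 1 the cofactor median was 15.4, with a range of 9.71 to 24.1, and the median of the open Hox promoters 3.17.

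Of 7 listed regulators of Hox expression, 2 had a promoter peak in each library, except for 3 in Cho replicate 2. The share of all promoters was 62.1% in WT, 67.9% in the deletion, 64.9% in Cho replicate 2 and 58.6% in Cho replicate 1. Gdf11, which shifts the axis toward the trunk and tail, and the retinoic acid receptor gene Rarg had a promoter peak in all 4 libraries. Gdf11 was at 8.17, 9.40, 19.2 and 11.4 and Rarg at 7.995, 6.92, 6.82 and 9.29 in WT, the deletion, Cho replicate 2 and Cho replicate 1. Cdx2 had a peak at 4.06 in Cho replicate 2 only, and Cdx1, Cdx4, Rara and Rarb had none at the start of the gene record. Of the Polycomb and trithorax genes, which keep Hox genes closed or open, 10 to 13 of the 14 or 15 found had a promoter peak in each library.

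Beside the clusters, Evx1 and Evx2, homeobox genes next to Hoxa13 and Hoxd13, had promoter peaks in the deletion library only, at 4.10 and 4.13. Mtx2, the gene past Hoxd1, had one in all 4 libraries, at 10.2, 17.2, 22.0 and 8.45 in the same order. Of all protein-coding promoters, 62.1%, 67.9%, 64.9% and 58.6% had one in that order. Of the 6 protein-coding genes with a start in the flanks in both annotations, Evx1, Evx2 and Mtx2 included, 2 had a peak in WT, 4 in the deletion library, 3 in Cho replicate 2 and 1 in Cho replicate 1. Of the 11 with a start in the clusters or flanks in the NCBIM37 annotation alone, 5 had a peak in WT, 8 in the deletion library and 2 in Cho replicate 1, among them Lnp beyond Evx2 at 18.5, 18.4 and 24.1. Among the 11, 5730596B20Rik and Gm53 start inside HoxA and HoxB, and the WT peak of Gm17649 is that of Hoxc13. Among noncoding RNA genes of the clusters, Mir615, which lies by Hoxc5, had a peak at its start at 6.76 in WT, 7.44 in the deletion library and 11.1 in Cho replicate 2, the same peaks as Hoxc5. Of 7 noncoding RNA genes with a start in the NCBIM37 annotation, 1 had a peak in WT, 2 in the deletion library and 0 in Cho replicate 1, and with the GRCm38 annotation 6 of 11 did in Cho replicate 2.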

How the data were processed

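Deposited ATAC-Seq peak lists of 4 libraries were used. Per the study methods and labels, the authors trimmed reads with fastp, aligned them with Bowtie2 2.4.4, processed them with Picard and SAMtools 1.9 and called peaks with MACS2 2.2.4, 1 list per library. Each deposited list gives a fold enrichment (a ratio), the −log10 p-value, the −log10 q-value and a score per peak. Cho replicate 1, WT and the deletion use NCBIM37 (GENCODE starts). Cho replicate 2 holds GRCm38 positions (RefSeq starts), although the labels name mm9. Coordinates were not converted, and sites of Cho replicate 2 were matched to the others by distance from the first gene of the cluster.

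Cho replicate 1 listed 87815 entries, of which 76242 intervals were kept, each at its strongest summit. The whole number of tags at each summit was recovered by combining the deposited fold enrichment with the Poisson p-value. Depth by the background was 6841, 20817, 4622 and 8697 tags per Mb for the Cho replicates, WT and the deletion in turn. Intervals cover counting error only. Scripts were checked on simulated data. Python 3.11.15, numpy 2.4.6, scipy 1.17.1, pandas 2.3.3 and pysam 0.24.0 were used.

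Members, gene lists and tests were chosen with earlier results of these data known. Values were given for every gene with a peak in all 4 libraries, for up to 6 others per cluster in order of highest fold enrichment (an order set after the values were seen), for the 3 highest and lowest ratios and for the 2 strongest distal sites per cluster. Some genes and sequences are not reported here. Alternatives covered windows, q-values, equal list lengths, transcript starts, measures, flanks, overlap and leaving out a Cho replicate.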

Additional observations from a re-analysis of the deposited data

How the results depend on the processing

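The position of Cho replicate 1 below the other libraries in Hox promoters held under the deposited lists and 6 alternatives, and so did the higher count in the deletion library than in WT. With only peaks of a −log10 q-value over 5, Cho replicate 1 had 0 Hox promoters (0 in groups 10 to 13 and 0 in groups 1 to 9), against 52.7% of all promoters. Then 0 were open in all 4 libraries. Of the 18 Hox promoters with a peak in both WT and the deletion, 8 were higher in the deletion library, against 50.5% of all promoters. With a window of 0.5 kb, Cho replicate 1 had 3 Hox promoters, against 53.5% of all promoters. Of these, 1 was in groups 10 to 13, and 1 promoter was open in all 4 libraries. With lists of equal length (76242 peaks), Cho replicate 2 had 16 of 38 (5 in groups 10 to 13, 11 in groups 1 to 9), WT 19 and the deletion library 20. All promoters then stood at 57.5%, 60.4% and 60.1% in this order, above the Hox share in each. The deletion library had 12 in groups 1 to 9, below the 15 of WT, and 2 promoters were open in all 4 libraries. The ratio of cluster peaks was 1.07 and the overlap of WT peaks was 82.6%. Leaving out a Cho replicate gave 4 to 22 promoters open in all remaining libraries, with 22 without Cho replicate 1, and a Cho median of 2.96 to 7.14. The median log2 ratio of deletion to WT was -0.13 by pileup over background, -0.048 with −log10 q-values over 5, -0.031 with overlapping peaks only and 0.49 by −log10 q-value, by which 22 of 23 promoters were higher in the deletion library. By pileup over background the Cho median was 11.1, and relative to all promoters open in both Cho replicates it was 0.304. The causes of these changes were not tested beyond the shorter lists. Of 112 alternative values, 89 stayed within the limits used (counts within 1.5 times, log2 medians within 0.1 and of the same sign, shares within the interval, the Cho median within 1 SD). These limits are wide: a fall from 30 to 20 promoters in the deletion library with lists of equal length, and a turn from 13 to 9 of 23 promoters higher in the deletion library by pileup, passed them. An alternative chosen after seeing the data placed Cho replicate 2 by distance from the first gene of each cluster, and it gave 29 promoters, 9 in groups 10 to 13, 20 in groups 1 to 9 and 4 in all 4 libraries. No paired analysis was possible because each genotype was sequenced in 1 library. The pileups, of 4 to 8 tags at the weakest peaks, limit what could be detected.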
